A study of Mus musculus with 6 samples.

Results

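The genes that make prostaglandins and leukotrienes were described in alveolar type II cells, the surfactant-secreting cells of the lung, from mice with and without Stat3 in the respiratory epithelium. The set was 10 named genes (Ptgs1, Ptgs2, Ptges, Hpgds, Alox5, Alox5ap, Alox12, Alox15, Ltc4s and Lta4h), chosen by name, and its members on the array were the probe sets that the platform annotation assigns to a single one of them. Of the 10 genes, 9 had such a probe set, with 15 probe sets among the 45037 that were tested. Ptgs1, the constitutive cyclooxygenase, is not reported here because no probe set in the annotation used here names it.

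Stat3Δ/Δ cells came from Stat3flx/flx mice that also carried SP-C-rtTA and (tetO)7CMV-Cre. In these mice doxycycline, given to the dams in their food during pregnancy and the first weeks after birth, switches on Cre through rtTA. This removes an exon of Stat3 from respiratory epithelial cells. Control cells came from non-deleted littermates of the same sex and age, whose source names give the transgenes SP-C-rtTA and (tetO)7CMV-Cre without the floxed alleles. The labels conflict here, since the description of every control sample lists the floxed alleles as well; controls were taken from title and source name, and the methods describe such littermates as carrying either transgene with Stat3flx/flx. Mice were 8 weeks old, cells of 3 mice made 1 pool, and 3 Stat3Δ/Δ pools and 3 control pools were each hybridized to an Affymetrix MOE430 array. The values are Microarray Suite 5.0 signals on a linear scale. A signal is the brightness of a probe set, so levels are compared between arrays and not between genes.

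Both families of mediators start from arachidonic acid, which phospholipase A2 releases from membrane lipids. Cyclooxygenases (Ptgs1 and Ptgs2) turn it into prostaglandin H2, from which terminal synthases such as Ptges and Hpgds make prostaglandins E2 and D2. The 5-lipoxygenase Alox5, with its membrane partner Alox5ap, makes leukotriene A4, which Lta4h hydrolyses to the neutrophil attractant leukotriene B4 and Ltc4s joins to glutathione to give leukotriene C4. In the lung, prostaglandin E2 is a product of epithelium and fibroblasts, while the leukotriene enzymes are best known from macrophages, mast cells and granulocytes.

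The arrays had median signals from 282.8 to 381.2. Stat3, the targeted gene, had 2 of its 4 probe sets below all controls in each Stat3Δ/Δ pool, with log2 fold changes of -0.71 and -0.80 (limma-adjusted p = 0.532 and 0.502), while the other two gave -0.046 and 0.60. Of the 9 measured markers of type II cells, 6 had a log2 fold change below 0 and 3 above, 2 were lower on every Stat3Δ/Δ array, and Abca3, the lipid transporter of lamellar bodies, gave -0.73 (unadjusted p = 0.0194, limma-adjusted p = 0.526) with 29374 to 41561 against 54889 to 67886 in the controls. Over all 18193 genes, 10782 lay below 0 and 7411 above, and 7.66% of all probe sets were lower on every Stat3Δ/Δ array. The surfactant genes Sftpa1, Sftpb, Sftpc and Sftpd had signals from 87021 to 147209 over the 6 arrays, and their log2 fold changes were between -0.038 and 0.053. Of 13 markers of alveolar macrophages, the main other cell that these isolates are known to hold, 13 had a log2 fold change above 0 and 3 passed an unadjusted p of 0.05 or less together with a difference of 1.5-fold or more, called here the p and fold limits. Over all genes these limits passed 2.19% higher and 5.56% lower. The summed signal of the macrophage list was 156994 to 218750 on the Stat3Δ/Δ arrays and 129709 to 141961 on the control arrays. Chil3 was the brightest gene of the list on every array, and the separation of the sums rests on it. Every signal in these data is above 0, so a signal alone does not show that a marker was expressed. In such bulk isolates, fewer cells of a type and less RNA per cell cannot be told apart. A number at the start of the titles joins Stat3Δ/Δ pools 1 and 2 with control pool 3; control pools 1 and 2 have a different number in common and Stat3Δ/Δ pool 3 stands alone. The sources used here do not say what it means.

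No member probe set was called different by limma at the study's thresholds, which add a false discovery rate (FDR) of 10% or less to the p and fold limits. Of all probe sets 0.00222% were. The study applied its thresholds to Robust Multichip Average (RMA) values, not to the signals used here. It also chose mRNAs that changed alike in multiple probe sets, and set the FDR aside for these. Each SE below is the standard error of a log2 fold change, and limma-adjusted p-values are over all 45037 probe sets. At an unadjusted p of at most 0.05, 2 of the 15 passed by limma and 1 by the methods' t-test. At the p and fold limits alone, 2 member probe sets were higher by limma, 1 of Ptgs2 and the only 1 of Hpgds, against 4.14% of all probe sets, and 0 were lower, against 4.22% of all. With the title number as a fixed block neither of the 2 passed. Hpgds was also lost with the methods' t-test, with the pseudocount at the median signal and when either Stat3Δ/Δ pool 1 or 2 or control pool 1 or 3 was left out. These 2 were also the ones that lay higher on every Stat3Δ/Δ array than in any control, as did 5.99% of all probe sets, and on the normalized scale 1 of Lta4h lay lower on every Stat3Δ/Δ array, as did 7.66% of all. In the other 12 the groups overlapped. With each gene represented by its brightest probe set, 5 of the 9 member genes had a log2 fold change above 0 and 4 below, with a median of 0.27. Of all 18193 genes, 7411 were above 0 and 10782 below, with a median of -0.085. Over all 15 probe sets, 7 were above 0 and 8 below, with a median of -0.0015, beside -0.017 for all probe sets. Without Stat3Δ/Δ pool 2 the median of the members was 0.029.

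**Figure D1:**
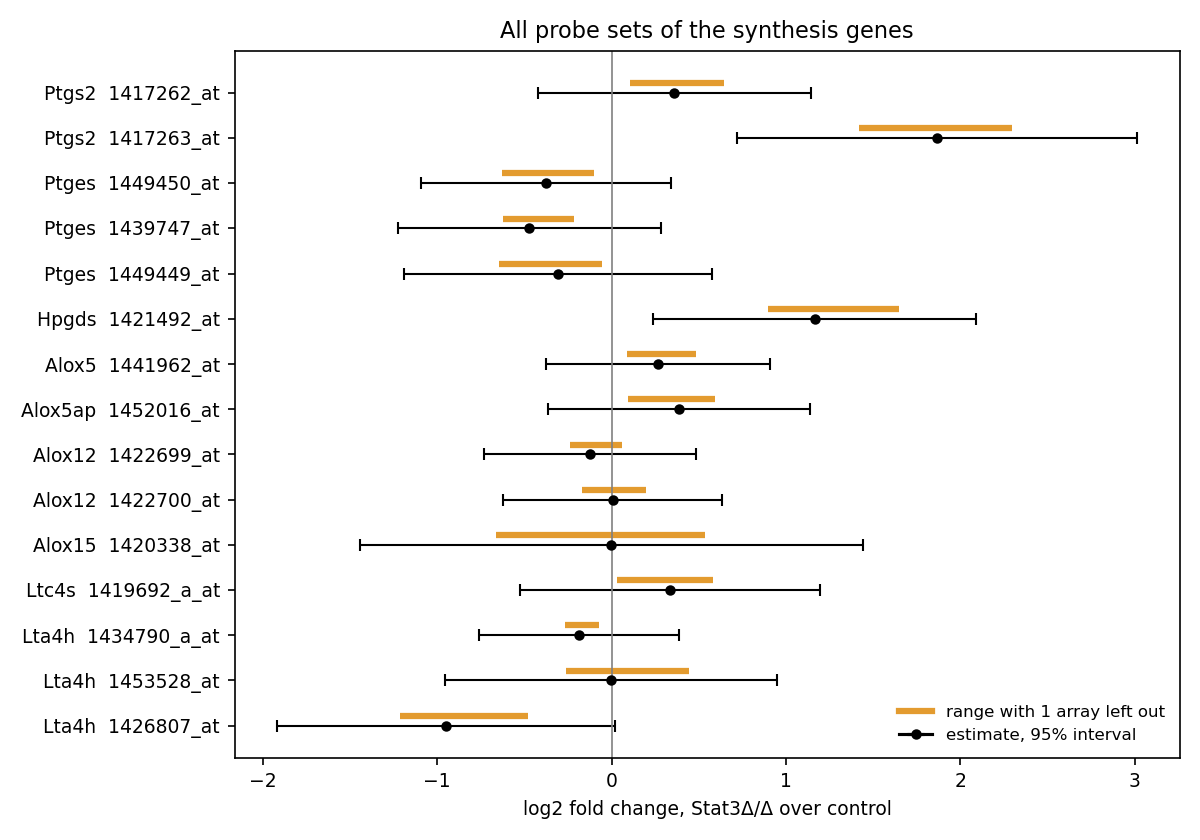
Log2 fold changes (Stat3Δ/Δ over control, horizontal axis) of the 15 probe sets of the 9 measured genes; points are limma estimates on the log2(signal + 69.9) scale, black bars 95% intervals, orange bars the range with 1 of the 6 arrays left out. The intervals of 13 probe sets cross 0; those of 1 Ptgs2 probe set and of Hpgds do not.

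Ptgs2 (cyclooxygenase 2), the inducible enzyme that commits arachidonic acid to prostaglandins, is shown with its promoter because it is the synthesis gene that the study names in its text, and because 1 of its probe sets had the largest fold change of the set. The study describes Ptgs2 as strongly induced in Stat3Δ/Δ cells, among its genes of apoptosis, and its text names no probe set. Its values were RMA, so the sizes below are not on the same scale. Here neither Ptgs2 probe set was called at the study's thresholds. The stretch runs from 150 bases before the annotated start through the first 25 bases of Ptgs2, at chr1:150099881-150100055 on the plus strand of GRCm38.p6, as given by RefSeq. Capitals mark a cyclic AMP response element core (TGACGT, here read on the minus strand) and an E-box (CACGTG), which share 2 letters. They begin 12 and 16 bases after the annotated start, so both lie within the annotated transcript and not upstream of it.

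Ptgs2: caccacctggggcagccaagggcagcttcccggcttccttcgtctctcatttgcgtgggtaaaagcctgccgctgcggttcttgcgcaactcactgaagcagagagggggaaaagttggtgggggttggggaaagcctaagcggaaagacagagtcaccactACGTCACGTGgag

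Promoters of 300 bases around the start were searched on both strands for 5 motifs. Of the 8 promoters of the 10 genes that the table holds, 1, that of Ptgs2, had the response element core and the E-box, which 7.64% and 7.24% of all 27025 promoters hold. The STAT element TTCNNNGAA was in 0 of the 8 and in 8.47% of all, the NF-kappaB consensus in 0 and 8.18%, and the TATA box TATAAA in 0 and 14.2%. These counts describe letters in a short window only.

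The brighter probe set of Ptgs2, 1417262_at, gave signals of 43693, 34076 and 23808 in Stat3Δ/Δ pools 1 to 3 and of 22844, 31211 and 29955 in control pools 1 to 3. Stat3Δ/Δ pools 1 and 2 were the highest, but pool 3 lay among the controls. The log2 fold change was 0.36 (SE 0.34, 95% interval -0.42 to 1.14, limma-adjusted p = 0.805). It ran from 0.10 without Stat3Δ/Δ pool 1 to 0.64 without Stat3Δ/Δ pool 3. It was 0.45 within the 3 arrays that share a title number and -0.12 between Stat3Δ/Δ pool 3 and control pools 1 and 2.

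The dimmer probe set of Ptgs2, 1417263_at, gave 17498, 8345 and 7859 in Stat3Δ/Δ pools 1 to 3 and 1456, 2980 and 5229 in control pools 1 to 3. Every Stat3Δ/Δ array was above every control array. On the log2 scale the Stat3Δ/Δ pools averaged 13.40 ± 0.70 (SD, n = 3) and the controls 11.54 ± 0.85 (SD, n = 3), a log2 fold change of 1.87 (SE 0.50, 95% interval 0.72 to 3.01, limma-adjusted p = 0.469). With 1 array left out it ran from 1.42 to 2.30. Within the arrays that share a title number it was 1.25, and between Stat3Δ/Δ pool 3 and control pools 1 and 2 it was 1.84.

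The 2 probe sets of Ptgs2 carry the same source accession in the annotation, and where each lies in the transcript is not given in the tables used here. The dimmer signal was 0.0637, 0.0955 and 0.175 of the brighter in control pools 1 to 3, and 0.400, 0.245 and 0.330 in Stat3Δ/Δ pools 1 to 3. The ratios of the groups did not overlap. For Gapdh, the log2 of the 3' over the 5' control signal, a measure of how far along the transcript labelling reached, was 0.27, 0.031 and -0.24 in control pools 1 to 3 and -0.49, -0.30 and -0.44 in Stat3Δ/Δ pools 1 to 3. Ordered by the Ptgs2 ratio from low to high, the 6 arrays had this Gapdh ratio from high to low without exception. For Actb the ratio was 0.81, 0.64 and 0.47 in control pools 1 to 3 and 0.34 to 0.42 in the Stat3Δ/Δ pools, so both control genes separated the groups as well. The part of transcript coverage in the dimmer probe set's difference was not tested.

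**Figure D2:**
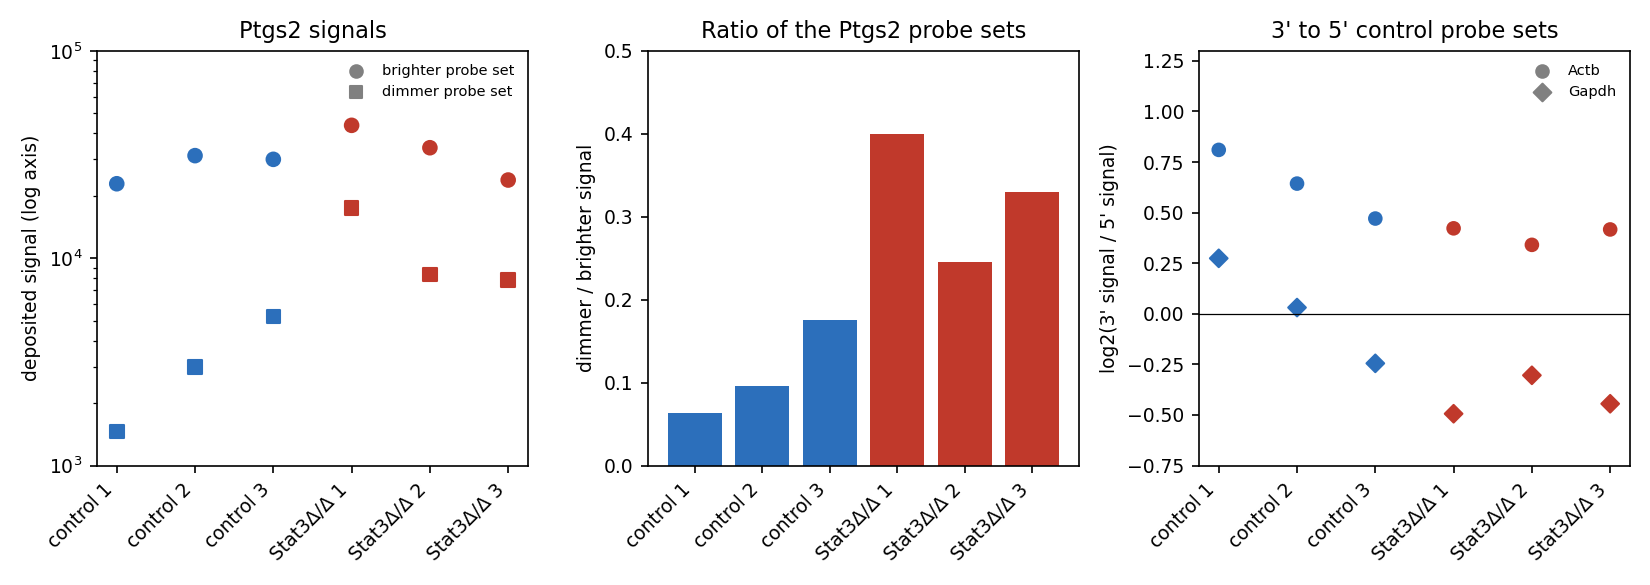
Left, deposited signals of both Ptgs2 probe sets on each array (log axis); middle, the dimmer over the brighter signal; right, log2 ratio of 3' over 5' control probe sets of Actb and Gapdh, with control arrays in blue and Stat3Δ/Δ arrays in red. The dimmer probe set and the ratio of the probe sets are higher on all 3 Stat3Δ/Δ arrays, where both 3' to 5' ratios are lower, while the brighter probe set overlaps between the groups.

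Ptgs2 is also an immediate early gene, switched on quickly by growth factors and cell stress. Of 15 other immediate early genes, 11 had a log2 fold change below 0, with 4 lower and 1 higher at the p and fold limits; their summed signal was 418074 to 476281 on the Stat3Δ/Δ arrays and 560796 to 630469 on the control arrays. Over all genes these limits passed 2.19% higher and 5.56% lower, and 10782 of all 18193 genes lay below 0. Neutrophils, which express Ptgs2 when activated, were represented by 10 markers, 7 of them above 0 and 4 higher at the same limits. The summed signal of these markers was 32239 to 38150 on the Stat3Δ/Δ arrays and 20456 to 25284 on the control arrays. Most of it came from S100a8, S100a9 and Ltf, with log2 fold changes of 1.68, 1.88 and -0.87. The separation of the sums rests on S100a8 and S100a9, and 3 of the 10 markers lay below 0. The part of either in the Ptgs2 values was not tested. Over the 6 arrays, the genes outside the set whose log2 signals were most like the brighter Ptgs2 probe set were Runx1 (Pearson r = 0.997), Yae1d1 (0.996), Trappc6b (0.991), Psmc6 (0.990) and Homer1 (0.990). Those most like the dimmer probe set, which was added to this description after its values were seen, were Emb (0.999), D1Pas1 (0.996), S1pr1 (0.995), Hnmt (0.993) and Cftr (0.991), so the lists had no gene in common. These r values were the highest for each probe set among the 18193 genes less the members. They rest on only 6 arrays and describe these arrays alone.

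Ptges, the inducible microsomal synthase that turns prostaglandin H2 into prostaglandin E2, had 3 probe sets, each with a log2 fold change below 0. The brightest, 1449450_at, gave 1526, 970.2 and 1989 in Stat3Δ/Δ pools 1 to 3 and 1825, 1803 and 1928 in control pools 1 to 3. The controls lay close together, Stat3Δ/Δ pools 1 and 2 lay below them and pool 3 above. The log2 fold change was -0.38 (SE 0.31, 95% interval -1.09 to 0.34, limma-adjusted p = 0.774), and without Stat3Δ/Δ pool 2 it was -0.10. The other two, 1439747_at and 1449449_at, gave -0.47 and -0.31, and their groups overlapped. Within the shared title number the 3 probe sets gave -0.64, -0.40 and -0.14, while Stat3Δ/Δ pool 3 against control pools 1 and 2 gave 0.13, -0.27 and 0.11.

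Hpgds, the haematopoietic synthase of prostaglandin D2 known from mast cells, T helper cells and macrophages, gave 256.3, 252.2 and 188 in Stat3Δ/Δ pools 1 to 3 and 15, 158 and 28.6 in control pools 1 to 3. The Stat3Δ/Δ arrays were all higher and close together, and the control arrays were spread, with pool 2 near the Stat3Δ/Δ arrays and the other two below the pseudocount. The log2 fold change was 1.16 (SE 0.40, 95% interval 0.24 to 2.09, limma-adjusted p = 0.526). It ran from 0.90 without control pool 1 to 1.65 without control pool 2, and since the signal is dim its size depends on the pseudocount, with 2.28 at a pseudocount of 1. It was 1.63 within the shared title number and 0.80 between Stat3Δ/Δ pool 3 and control pools 1 and 2.

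Mast cells, which make prostaglandin D2, were represented by 9 markers, of which 5 had a log2 fold change above 0 and 4 below. Cpa3, the mast cell carboxypeptidase, was the 1 of these that passed the p and fold limits, and gave 259.0, 473 and 277 in Stat3Δ/Δ pools 1 to 3 and 50.2, 237 and 44.2 in control pools 1 to 3. As for Hpgds, control pools 1 and 3 gave the lowest Cpa3 signals and control pool 2 a signal close to the lowest Stat3Δ/Δ array. Cpa3 is the only marker of the list given by array here. The 4 markers below 0 had log2 fold changes from -0.57 to -0.011. The summed signal of the list, most of it from the histamine-forming enzyme Hdc, was 25340 to 48440 on the Stat3Δ/Δ arrays and 41662 to 64760 on the control arrays. The order of the control arrays seen for Hpgds and Cpa3 did not hold over the list. Among the controls, pool 2 was highest for Cpa3, Kit, Ms4a2 and Fcer1a. Control pool 1 was highest for Mcpt4, Tpsb2, Tpsab1 and Hdc, and control pool 3 for Cma1. The part of mast cells or macrophages in the Hpgds values was not tested.

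**Figure D3:**
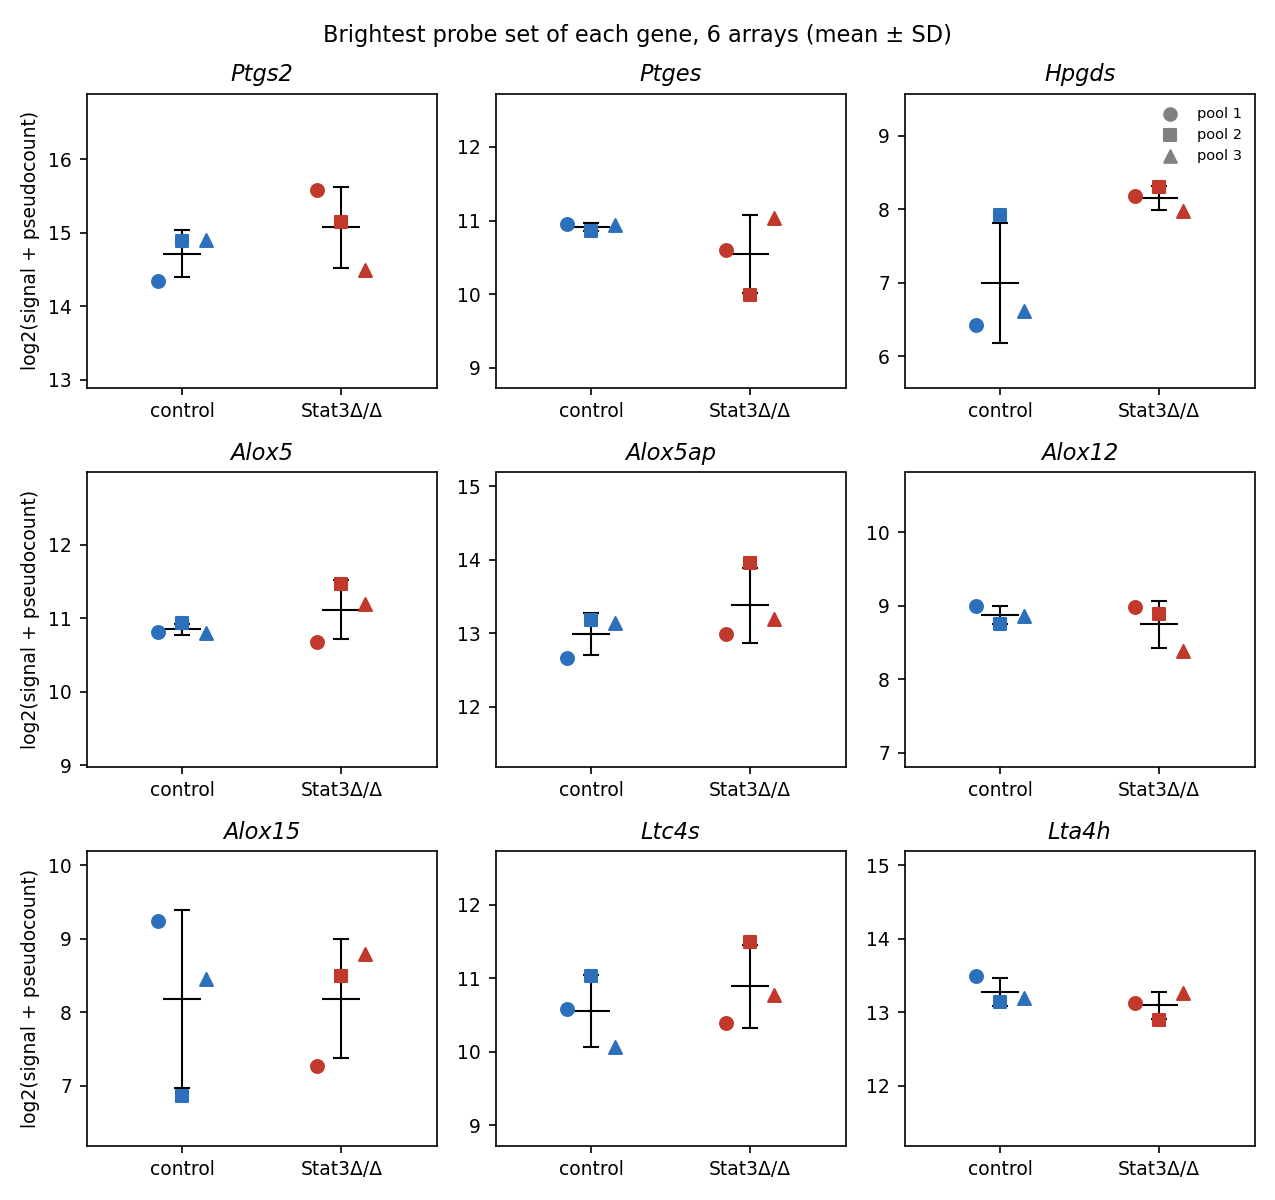
Normalized log2(signal + pseudocount) of the brightest probe set of each of the 9 genes on the 3 control arrays (blue) and the 3 Stat3Δ/Δ arrays (red); symbols mark the pool number, bars the mean ± SD, and every vertical axis spans 4 log2 units. Only Hpgds has its 3 Stat3Δ/Δ arrays above all control arrays.

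Alox5, the 5-lipoxygenase, gave 1625, 2814 and 2224 in Stat3Δ/Δ pools 1 to 3 and 1626, 1901 and 1770 in control pools 1 to 3, a log2 fold change of 0.27 (SE 0.28, 95% interval -0.37 to 0.91, limma-adjusted p = 0.825). Stat3Δ/Δ pools 2 and 3 were the highest arrays and pool 1 the lowest. Alox5ap, the membrane protein that presents arachidonic acid to it, gave 7910, 15376 and 9293 in Stat3Δ/Δ pools 1 to 3 and 6520, 9244 and 8773 in control pools 1 to 3. Its log2 fold change was 0.39 (SE 0.33, 95% interval -0.37 to 1.14, limma-adjusted p = 0.779), with Stat3Δ/Δ pool 2 far above the rest and the other arrays overlapping.

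Ltc4s, the synthase of leukotriene C4, gave 1333, 2868 and 1636 in Stat3Δ/Δ pools 1 to 3 and 1352, 2036 and 1047 in control pools 1 to 3, a log2 fold change of 0.33 (SE 0.38, 95% interval -0.53 to 1.19, limma-adjusted p = 0.837). Stat3Δ/Δ pool 2 was again the highest array, followed by control pool 2. Without Stat3Δ/Δ pool 2 the log2 fold changes were 0.088 for Alox5, 0.095 for Alox5ap and 0.029 for Ltc4s. Within the shared title number they were 0.28, 0.33 and 0.89, and between Stat3Δ/Δ pool 3 and control pools 1 and 2 they were 0.32, 0.27 and -0.032.

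Stat3Δ/Δ pool 2 also had the highest level of the macrophage markers, with a mean log2 signal over the 13 of 13.17, against 12.62 and 12.48 in Stat3Δ/Δ pools 1 and 3 and 12.05, 12.38 and 12.39 in control pools 1 to 3. The means of the mast cell, neutrophil and eosinophil lists were also highest in Stat3Δ/Δ pool 2, at 9.21, 10.72 and 7.69. On the other arrays these means reached at most 8.93, 10.62 and 7.68. Those of the lymphocyte and platelet lists were highest on a control array. The part of any of these cells in the values of Alox5, Alox5ap and Ltc4s was not tested.

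**Figure D4:**
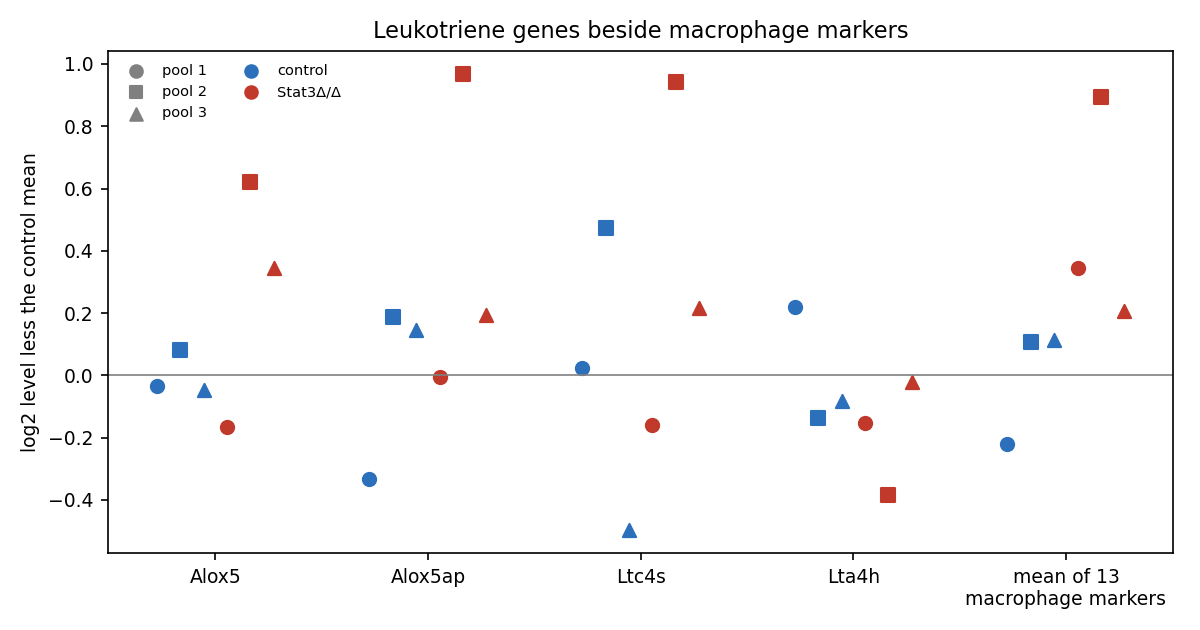
Log2 levels of Alox5, Alox5ap, Ltc4s and Lta4h (brightest probe sets) and the mean of 13 macrophage markers on each array, less the mean of the control arrays; colour marks the group and symbol the pool. Stat3Δ/Δ pool 2 is the highest array for Alox5, Alox5ap, Ltc4s and the macrophage markers and the lowest for Lta4h.

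Lta4h, the widely expressed hydrolase that makes leukotriene B4, gave 8659, 7558 and 9832 in Stat3Δ/Δ pools 1 to 3 and 12097, 8986 and 9078 in control pools 1 to 3 for its brightest probe set, 1434790_a_at. The groups overlapped and differed little, with a log2 fold change of -0.19 (SE 0.25, 95% interval -0.76 to 0.39, limma-adjusted p = 0.868). The dimmest of its 3 probe sets, 1426807_at, gave 210.4, 152 and 20.4 in Stat3Δ/Δ pools 1 to 3 and 263.6, 273.5 and 193.0 in control pools 1 to 3. Deposited signals of the groups overlapped, and after normalization every Stat3Δ/Δ array was lower by a narrow margin, with 7.96 for Stat3Δ/Δ pool 1 and 7.98 for control pool 3 on the log2 scale. Its log2 fold change was -0.95 (SE 0.42, limma-adjusted p = 0.600), but it was -0.097 within the shared title number and -2.08 between Stat3Δ/Δ pool 3 and control pools 1 and 2, and -0.48 without Stat3Δ/Δ pool 3, which held the lowest value. The remaining probe set, 1453528_at, gave -0.0040, with -1.11 within the shared title number and 0.87 between the other arrays. The 3 probe sets therefore do not give a single value for the gene.

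Alox12, the platelet-type 12-lipoxygenase, was dim, with signals of 268.1 to 488.0 for its brighter probe set and 85.0 to 167.0 for the other over the 6 arrays. The log2 fold changes were -0.12 (SE 0.27, 95% interval -0.73 to 0.49) and 0.0069 (SE 0.27, 95% interval -0.62 to 0.63), and both changed sign with some of the arrays left out. Alox15, the 12/15-lipoxygenase of resident macrophages and eosinophils, gave 99.0, 299 and 374 in Stat3Δ/Δ pools 1 to 3 and 455, 42.6 and 300.3 in control pools 1 to 3. The spread within each group exceeded any difference between them, with a log2 fold change of -0.0015 (SE 0.63, 95% interval -1.45 to 1.44, limma-adjusted p = 0.999). A change of either sign of well over 1.5-fold in Alox15 would lie within this interval, so its data are too spread to show whether it differed. Of 7 platelet markers, 4 lay above 0 and 3 below, with Pf4 higher (log2 fold change 0.62) and Itgb3 lower (-1.34) at the p and fold limits, and of 4 eosinophil markers, 4 lay above 0 and 0 passed the limits; their summed signals were 6078 to 8077 and 544 to 770 on the Stat3Δ/Δ arrays and 4105 to 6627 and 362 to 466 on the control arrays.

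The other genes of the pathway, 49 measured of 55 listed, had 5 members higher and 1 lower at the p and fold limits, each by its brightest probe set; over all genes these limits passed 2.19% higher and 5.56% lower. None of the 49 was called with the FDR by limma. Of 4 receptors for leukotrienes and lipoxins, 4 were above 0 and 2 passed, and of 9 prostanoid receptors, 6 were above 0 and 2 passed. Ltb4r1, the high-affinity leukotriene B4 receptor of leukocytes, gave 243.3, 279.5 and 281.2 in Stat3Δ/Δ pools 1 to 3 and 115, 36.2 and 143 in control pools 1 to 3, a log2 fold change of 0.94 (SE 0.32, limma-adjusted p = 0.522). Fpr2, a formyl peptide receptor that binds lipoxin A4, gave 6093, 10837 and 6127 against 4532, 3511 and 4434 in the same order, a log2 fold change of 0.85 (SE 0.31, limma-adjusted p = 0.539). Both are receptors of neutrophils and macrophages, and every Stat3Δ/Δ array was above every control array. The summed signals of the macrophage and neutrophil lists given above did not overlap between the groups either. That separation rests on Chil3 for macrophages and on S100a8 and S100a9 for neutrophils. Of the single markers, 6 of 13 for macrophages and 4 of 10 for neutrophils were higher on every Stat3Δ/Δ array, as were 5.99% of all probe sets. The part of these cells in the receptor values was not tested.

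Ptger3, a prostaglandin E2 receptor that lowers cyclic AMP, gave 532, 534 and 612 in Stat3Δ/Δ pools 1 to 3 and 274, 215 and 248 in control pools 1 to 3. These groups were well apart and the arrays of each lay close together, with a log2 fold change of 0.86 (SE 0.25, limma-adjusted p = 0.495). Ptgdr, the prostaglandin D2 receptor, gave 1.07, with 1 control array among the Stat3Δ/Δ arrays. Of the enzymes, Ptgis, which makes prostacyclin in endothelium and fibroblasts, gave 212, 1163 and 957 in Stat3Δ/Δ pools 1 to 3 and 2100, 2117 and 1199 in control pools 1 to 3, a log2 fold change of -1.41 (SE 0.59, limma-adjusted p = 0.579). It was lower on every Stat3Δ/Δ array. Markers of fibroblasts also lay lower, 7 of 10 below 0 with a summed signal of 11737 to 19166 on the Stat3Δ/Δ arrays and 19677 to 37136 on the control arrays, as did those of endothelium, 7 of 8 below 0 with 15500 to 19955 against 20764 to 25156. Of all 18193 genes, 10782 lay below 0 as well. The part of fibroblasts and endothelium in the Ptgis value was not tested. Alox12e, an epidermal 12-lipoxygenase, gave 1.11, with all control signals and that of Stat3Δ/Δ pool 3 (61.5) below the pseudocount.

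Phospholipases A2 that release arachidonic acid had a median log2 fold change of -0.20, with 11 of 15 below 0 and none past the limits. Pla2g4a, the cytosolic enzyme that is the main source of arachidonic acid for both pathways, gave -0.26 (SE 0.26, limma-adjusted p = 0.815), with overlapping groups. The other prostanoid synthases and reductases had 7 of 7 below 0 and a median of -0.21, and the genes of breakdown and transport 7 of 10 below 0 and a median of -0.15. The 4 other lipoxygenases had a median of -0.059. The median over the 49 genes was -0.099, near that of all genes. Since 10782 of all 18193 genes lay below 0, a list with more genes below 0 than above is not set apart by that alone.

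**Figure D5:**
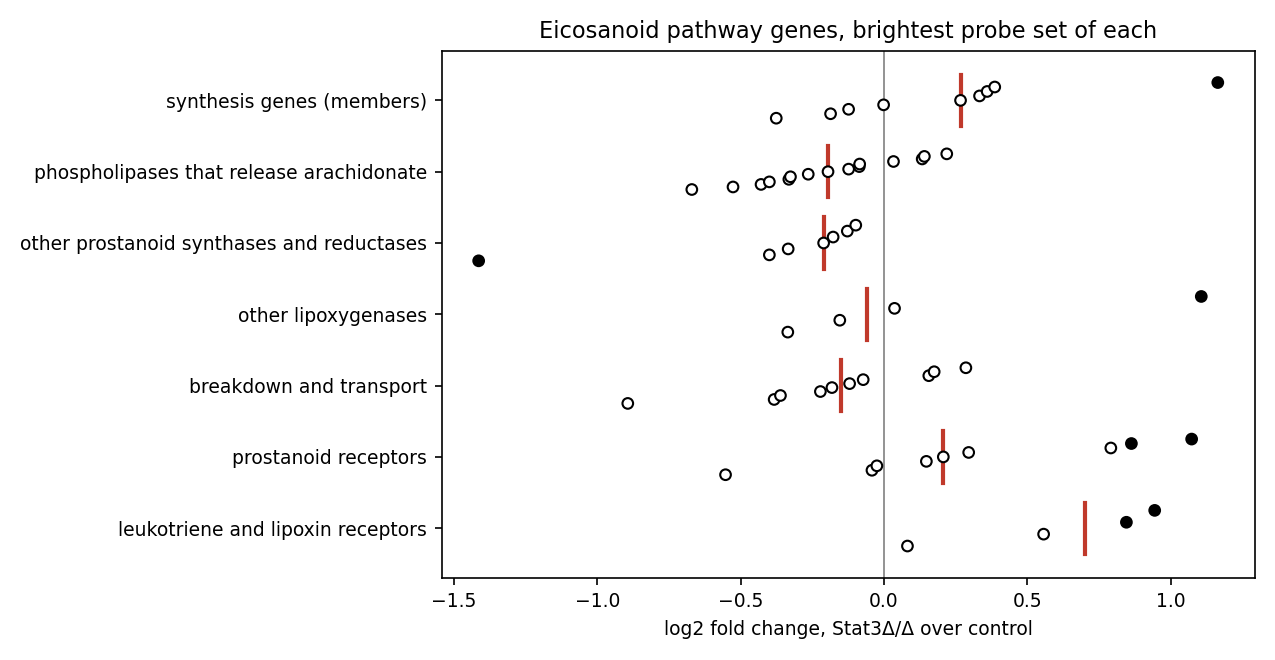
Log2 fold changes (Stat3Δ/Δ over control, horizontal axis) of the 9 measured synthesis genes and of 49 other pathway genes, each by its brightest probe set; filled points passed the p and fold limits, and red bars are list medians. Filled points at the right are Hpgds, Alox12e and 4 receptors, and Ptgis is the 1 at the left.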

How the data were processed

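Expression was measured in 3 Stat3Δ/Δ and 3 control pools of alveolar type II cells, each from 3 mice and on its own array. The deposited intensity values are Microarray Suite 5.0 signals that the authors scaled on each array to the same trimmed mean; the RMA values described in the methods were not used here, and detection calls were not used here. Pools were grouped by their titles. Of 45101 probe sets, 64 controls were left out. A pseudocount of 69.9, which is the 20th percentile over all arrays, preceded the log2 transform, and arrays were quantile normalized; fold changes on this log2(signal + 69.9) scale understate those of dim genes. limma 3.58.1 in R 4.3.3 was fitted to all probe sets with a group term, with Benjamini-Hochberg adjustment over all of them. The brightest probe set of a gene is that with the highest mean signal. Annotation named 1 gene for 34945 probe sets, several for 932 and none for 9160. The fit was tested on simulated data. The number of arrays limits the precision. Pools are separate groups of mice, and pool numbers were not used to pair them.

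All members and all of their probe sets were named, and other pathway genes where p was 0.05 or less and the difference 1.5-fold or more (up to 6 in each list). Pla2g4a was named after its values were seen, and Abca3, Cpa3, Hdc, Pf4, Itgb3, Sftpa1, Sftpb, Sftpc and Sftpd as cell type markers. The other mast cell markers and Chil3, S100a8, S100a9 and Ltf were also named after their values were seen. The members, gene lists and tests were chosen with earlier results of these data known. Alternatives changed the pseudocount, normalization, low-signal filter, test, variance model, array weights, blocks, probe set choice and arrays left out; the comparison of Stat3Δ/Δ pool 3 with control pools 1 and 2 was added after seeing the data. Python 3.11.15 with pandas 2.3.3 and numpy 2.4.6 wrote the tables, and figures were drawn with matplotlib 3.10.9.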

Additional observations from a re-analysis of the deposited data

How the results depend on the processing

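No member probe set was called with the FDR under any alternative with a test. Of 274 recomputed log2 fold changes of single probe sets, 244 kept their direction. Those of the methods' t-test, the other variance model and the replicate block equal the main values by construction and could not turn. The title number block and the arrays that share a title number give the same values, and both were counted. The tally therefore overstates how steady the directions are. The count of probe sets higher without the FDR, 2, was 1 with the methods' t-test, 1 with the pseudocount at the median signal, 0 with the title number as a fixed block, and 1 to 2 with 1 array left out; Ptgs2 1417263_at passed in all of these but the block, and Hpgds was the one lost. The count lower, 0, was 1 with arrays centred on their medians (Lta4h 1426807_at), 1 with the replicate block (the same), 1 with the title number as a fixed block (Lta4h 1453528_at), and 0 to 1 with 1 array left out. Pool numbers were not taken to pair the arrays. Deviations of same-numbered arrays correlated at -0.084, -0.0088 and -0.24, and those of differently numbered arrays at -0.138 to 0.190. Deviations within a group of 3 sum to 0, so these correlations cannot show whether pools were paired. The members' median ran from 0.029 (without Stat3Δ/Δ pool 2) to 0.45 (without Stat3Δ/Δ pool 1). Of the 30 that changed sign, 22 were in settings with a test, all of them in the 4 probe sets with the smallest log2 fold changes, and 8 were in comparisons of a few arrays without a test. Between Stat3Δ/Δ pool 3 and control pools 1 and 2, Ptgs2 1417262_at turned to -0.12, Ptges 1449450_at to 0.13, Ptges 1449449_at to 0.11, Ltc4s to -0.032, the dimmer Alox12 probe set to -0.12, Alox15 to 0.74 and Lta4h 1453528_at to 0.87; within the shared title number the brighter Alox12 probe set gave 0.067. The brighter Alox12 probe set turned to 0.018 with no normalization between arrays and 0.067 with the title number as a block, and ran from -0.24 to 0.060 with 1 array left out. The other turned to -0.081 with array weights, -0.0060 without low signals and -0.0040 with the median pseudocount, and ran from -0.17 to 0.20. Alox15 turned to 0.35 with array weights, 0.11 with no normalization and 0.12 with a pseudocount of 1, and ran from -0.66 to 0.54. Lta4h 1453528_at turned to 0.016 with array weights, 0.12 with no normalization and 0.016 with a pseudocount of 1, and ran from -0.26 to 0.44. The cause of these shifts was not tested. Signals near the pseudocount, as for Hpgds, Alox12 and Alox15, limit what these arrays can show.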
